A study of Caenorhabditis elegans with 6 samples.

Results

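The genes described here encode sperm proteins of *Caenorhabditis elegans*. They are all rows of a gene count table whose WormBase symbol starts with *msp-*, *ssp-*, *ssq-*, *sss-* or *spe-*, which gave 77 of 20447 genes: 31 *msp*, 12 *ssp*, 4 *ssq*, 1 *sss* and 29 *spe* genes. Their poly(A)+ RNA was read in 6 libraries of whole worms grown at 20 °C on *E. coli* OP50. Wild-type worms (strain N2) and *ebax-1(tm2321)* mutants (strain CZ9907) were taken as starved L1 larvae, the first larval stage, after hatching overnight without food, with 2 libraries per genotype. Wild-type worms (N2) and *ebax-1(tm2321)* mutants (strain FX02321) were taken as gravid adults after about 68 h on food, with 1 library per genotype. EBAX-1, called ZSWIM8 in mammals, recognizes the substrates of a ubiquitin ligase and is needed for the decay of certain microRNAs. The mutant strain differed between stages, and the study suspects a second mutation in the *tm2321* line, so an effect of *ebax-1* and one of the strain background cannot be told apart here.

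Major sperm protein (MSP), the product of the *msp* genes, is the most abundant protein of nematode sperm. It builds the filaments on which these sperm crawl in place of actin, and it is also released as the signal that starts oocyte maturation and sheath contraction. Hermaphrodites make sperm late in larval life and then turn the germline over to oocytes for good, so a gravid adult stores sperm made earlier, and the germline of a starved L1 larva consists of primordial germ cells. The *spe* genes were found as mutants with defective sperm, and their products act in sperm formation, spermatid activation or fusion with the egg. The *ssp*, *ssq* and *sss* genes were named as sperm-specific families, and the short SSP proteins are related to MSP.

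The libraries held 10937932 to 13425500 counts in L1 larvae, 21328335 in wild-type adults and 13148409 in mutant adults. The targeted gene, *ebax-1*, had 970 and 873 counts in the wild-type L1 libraries and 501 and 523 in the mutant ones (log2 fold change -0.79, SE 0.0971, edgeR adjusted p = 5.09e-06), and 1051 and 275 counts in wild-type and mutant adults. Reads were summed over its whole coding sequence, so these counts do not measure intact transcript. The yolk gene *vit-2* had 5 to 10 counts in each L1 library and 375351 and 263466 in the adult libraries, and the oocyte yolk receptor gene *rme-2* had 40 to 63 and then 9874 and 6172, as the stage labels say.

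The *msp* genes were nearly uniform in structure. All 31 had a single coding exon, as did 3.03% of the 19620 genes of the table with annotated coding sequence, and 28 of them had a coding length of 381 bases. All lay on chromosomes II (13 genes) and IV (18 genes). Of the 12 *ssp* genes, 9 also had a single coding exon, with coding lengths from 321 to 336 bases, while the 4 *ssq* genes and *sss-1* had 3 exons each. The *spe* genes had a median of 6 coding exons and coding lengths from 198 to 3657 bases, and 12 of the 29 lay on chromosome I. Of all 77 genes, 40 had another within 50000 bases, against 1 of the 29 *spe* genes. The 40 fell into 9 groups of neighbours. The largest held 9 genes on chromosome IV (WBcel235, 9836034 to 9934322): *msp-81*, *msp-10*, *msp-56*, *ssp-10*, *ssq-1*, *sss-1*, *msp-77*, *ssp-32* and *spe-29*. In no case did the coding sequence of a sperm gene overlap that of another gene on the same strand.

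In gravid adults nearly all of these genes were detected, with 76 of 77 having at least 1 count in wild type and 75 in the mutant. Together they took 21244 counts, or 0.0996% of the library, in wild type, and 11722 counts, or 0.0892%, in the mutant. Levels of different genes are compared here per length, as CPM (a gene's share of the library's counts, scaled to a common library size with TMM over the adult libraries) per kb of coding sequence. On that scale the highest was *msp-31*, at 119 in wild type and 104 in the mutant, followed by *sss-1* at 103 and 108. *msp-81* (84.4 and 66.1), *msp-57* (59.4 and 51.9) and *msp-40* (59.4 and 46.3) came next among the *msp* genes. Of the *ssp* genes, *ssp-35* was at 50.5 and 41.1, *ssp-34* at 53.8 and 35.7 and *ssp-10* at 46.3 and 35.3, with *ssp-16* lower, at 25.9 and 20.3. *ssq-1* had 44 and 39.9, *ssq-4* had 25.9 and 20.3, *ssq-2* had 25 and 19.9 and *ssq-3* had 7.94 and 5.08. Among the *spe* genes *spe-39*, whose product works in vesicle trafficking in many tissues, had 49.8 and 55.9. It was followed by *spe-11*, which encodes a protein that sperm bring to the embryo (47.8 and 45.7), *spe-48* (43.2 and 49.7) and *spe-18*, needed for the fibrous bodies that hold MSP (24.1 and 18.9). With 1 library per genotype the order of near neighbours has no replicate check. Even the highest of them, *msp-31*, had rank 1519 among the genes of the table by mean adult level per kb.

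**Figure D1:**
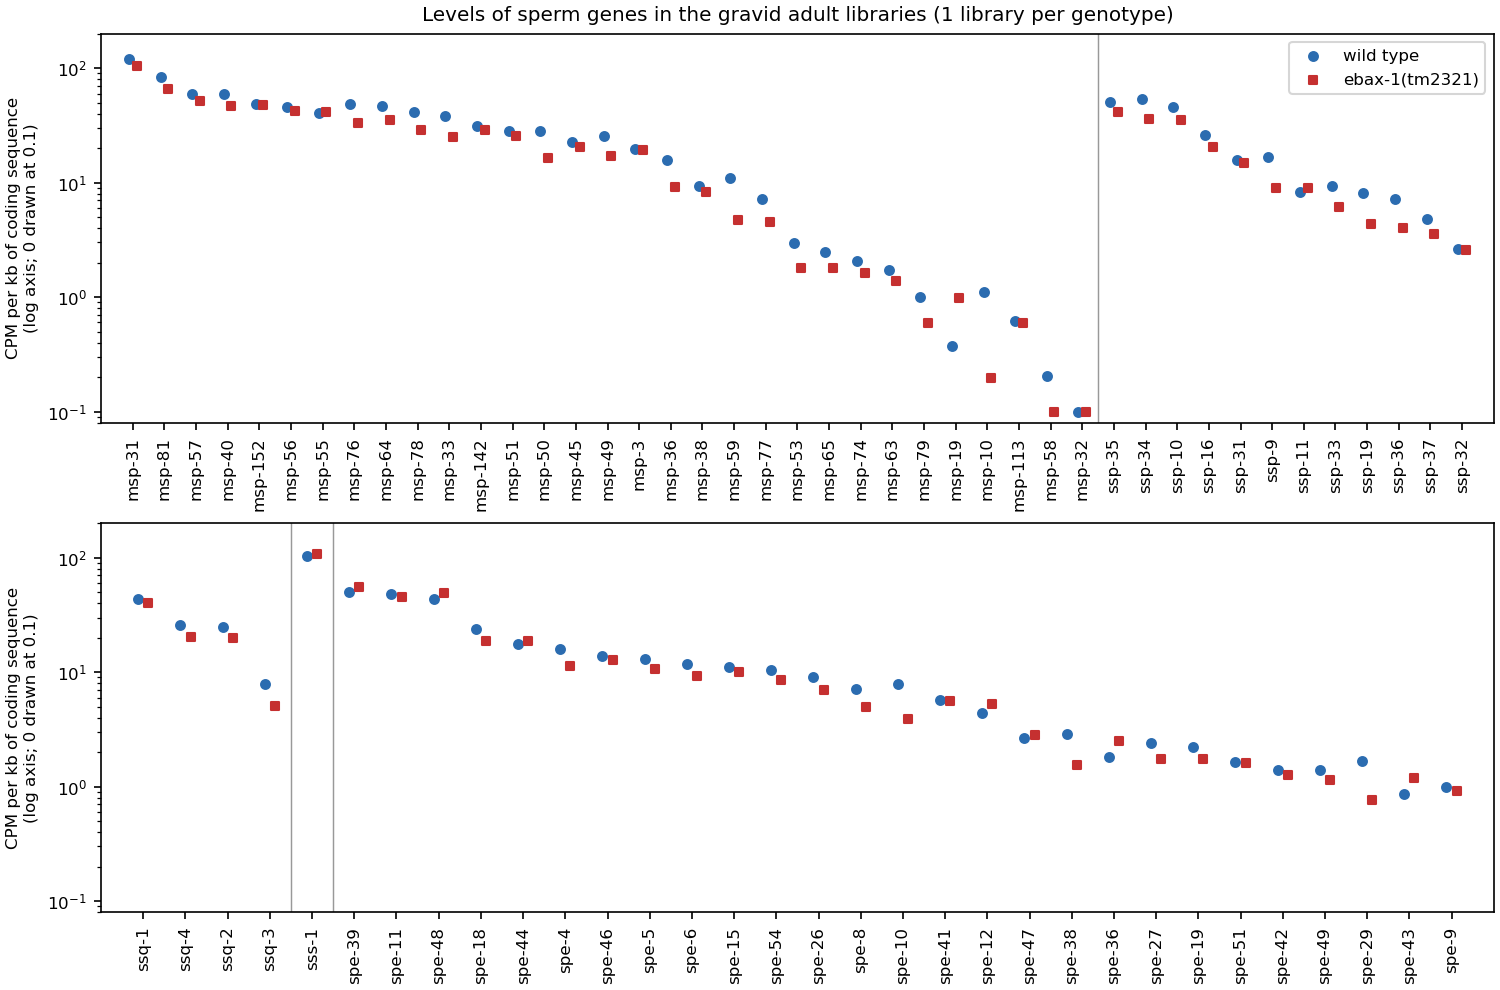
Level of 75 of the 77 sperm genes in the wild-type (blue circles) and *ebax-1(tm2321)* (red squares) gravid adult libraries, in CPM per kb of coding sequence on a log axis. The *msp* genes span from 119 for *msp-31* to 0 for *msp-32* in wild type, and most mutant points lie slightly below the wild-type points.

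The *msp* genes spread over a wide range in spite of their common structure. In wild-type adults the 28 *msp* genes of 381 coding bases ran from 3 counts (*msp-19*) to 963 counts (*msp-31*), with a median of 217, and in mutant adults from 1 (*msp-10*) to 525 (*msp-31*), with a median of 100.5. The 5 highest of the 31 *msp* genes held 44% of the family's 6798 counts in wild type, and 10 of the 31 had fewer than 25 counts. Some neighbours differed widely. In a group of 4 on chromosome II (WBcel235, 4892311 to 4933410), *msp-31* had 963 and 525 counts in wild type and mutant, *msp-152* had 390 and 243, *msp-33* had 309 and 127, and *msp-32* had 0 in both. In a group of 6 on chromosome IV (5260589 to 5316906), *msp-51* had 229 and 128 counts, *msp-59* had 89 and 24, and *msp-19*, *msp-113*, *msp-58* and *msp-65* had at most 20 in either library. Other neighbours were closer, such as *msp-36* and *msp-38* on chromosome IV, at 126 and 75 counts in wild type. Only reads with a unique alignment were counted, so a read shared by near-identical *msp* genes was dropped. The levels of single *msp* genes, and their sum, are therefore lower limits, and how much of the spread comes from shared reads was not tested.

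Starved L1 larvae had almost no reads from the *msp*, *ssp*, *ssq* and *sss* genes. All 31 *msp* genes together had 4 and 3 counts in the wild-type L1 libraries and 1 and 5 in the mutant ones, against 6798 and 3462 in wild-type and mutant adults. The 12 *ssp* genes had 3 counts over the 4 L1 libraries, the 4 *ssq* genes had 1 and *sss-1* had 0. Over all 77 genes, 43 had no count in any L1 library, where 90.1% of all genes of the table had at least 1. A count of 0 over the 4 libraries allows a level of up to 0.0654 CPM (scaled over all 6 libraries), which corresponds to 3 counts. *msp-32* was the only member with reads in L1 larvae and none in adults, with 3 counts in wild-type replicate 2 and 1 in mutant replicate 2.

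The *spe* genes accounted for 4414 of the 4431 L1 counts of the whole set, and 24 of the 29 were detected at that stage. *spe-48* was highest in L1 larvae, with 458 and 447 counts in wild type and 421 and 370 in the mutant. *spe-39* had 263 and 240 counts in wild type and 260 and 259 in the mutant. *spe-15*, which encodes a myosin VI that sorts components in dividing spermatocytes, had 158 and 174 in wild type and 184 and 178 in the mutant. *spe-51*, which encodes a secreted sperm protein needed for fertilization, had 30 and 38 in wild type and 40 and 43 in the mutant. These raw counts do not allow for library size. In CPM, *spe-48* was at 35.9 and 37.9 in wild type and 34.2 and 32.6 in the mutant, and *spe-39* at 20.6 and 20.3 and then 21.1 and 22.9. On that scale the mutant mean was lower for *spe-48* and higher for the other 3, and none of the 4 was called by edgeR. No L1 reads came from *spe-8*, which encodes a tyrosine kinase of spermatid activation, nor from *spe-11*, *spe-29* or *spe-38*.

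**Figure D2:**
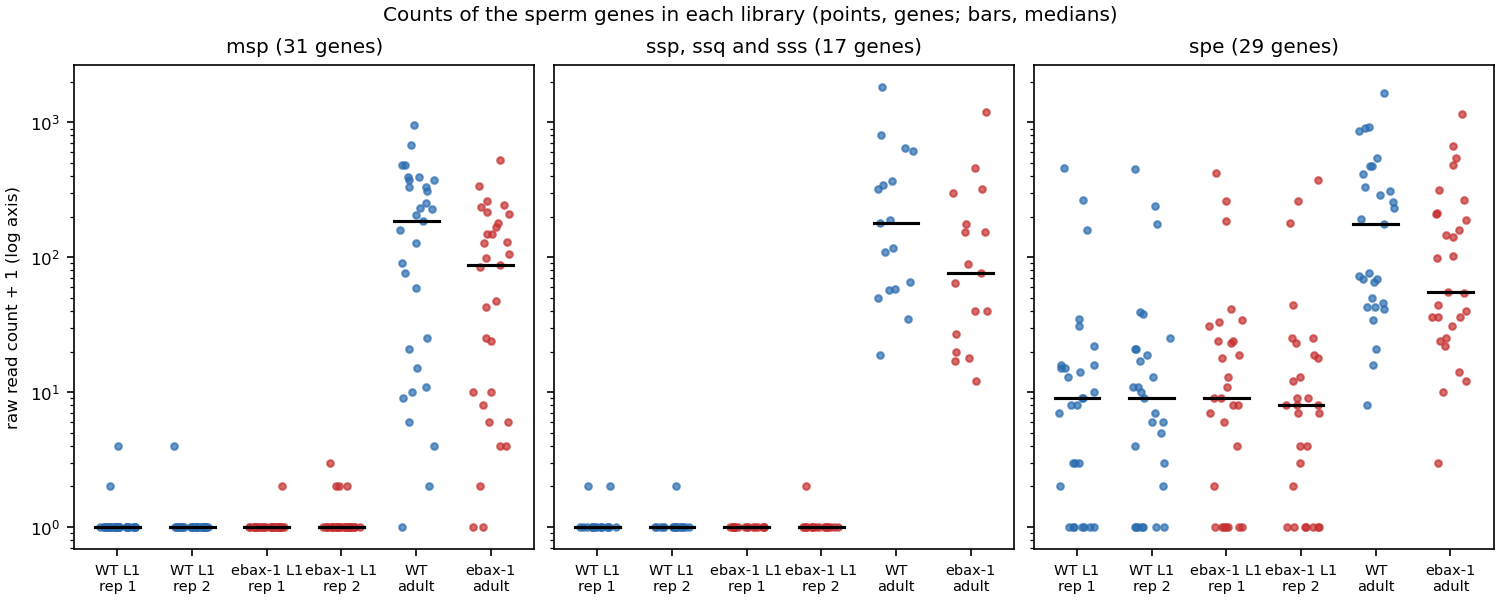
Raw read counts of the sperm genes in each of the 6 libraries, plotted as count + 1 on a log axis, with wild type in blue, *ebax-1(tm2321)* in red and a black bar at the median. The *msp*, *ssp*, *ssq* and *sss* genes lie at 0 to 3 counts in every L1 library, while several *spe* genes reach far higher counts there, up to 458 for *spe-48*.

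Adults were compared with L1 larvae in a fit over all 6 libraries, with genotype as a second term, so that the 2 adult libraries served as the adult replicates. Of the 64 sperm genes with enough reads to be tested, 62 were higher in adults and 0 lower at an edgeR adjusted p of 0.05, where 44% of all 15800 tested genes were higher and 41.9% lower (85.9% in either direction). The *msp*, *ssp*, *ssq* and *sss* genes had too few L1 reads for a test among the L1 libraries. They passed the filter on counts through the adult libraries alone, so their being called higher says little beyond that. The called genes were 21 of 21 tested *msp*, 12 of 12 *ssp*, 4 of 4 *ssq*, *sss-1* and 24 of 26 *spe* genes. DESeq2 called 55. Without the filter on counts, edgeR called 71 of the 77 members higher and 0 lower. It then called 7441 of all 19408 genes higher and 6954 lower. For the 33 genes called with the filter that had no L1 count, only a lower bound of the fold could be given. It was taken against a floor of 3 counts over the 4 L1 libraries. *sss-1* was at least 1216-fold higher in adults, *spe-11* at least 581-fold, *msp-81* at least 398-fold and *ssq-2* at least 378-fold. Over the 16 called *msp* genes with no L1 count these bounds ran from 31.1-fold to 398-fold.

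Among the called members, the smallest rises between stages were those of 4 *spe* genes with reads in every L1 library. Such reads did not always go with a small rise: *spe-4*, with 21 to 33 counts in each L1 library, rose by 2.98 (SE 0.242) on the log2 scale. *spe-9*, which encodes an EGF-repeat protein of the sperm surface needed for fertilization, had 8, 12, 12 and 11 counts in the L1 libraries and 42 and 24 in adults (log2 fold change 0.88, SE 0.354, edgeR adjusted p = 0.0418). *spe-49*, another fertilization gene, had 12 and 16 counts in wild-type and 23 and 17 in mutant L1 larvae, and 68 and 35 in adults (0.87, SE 0.333, edgeR adjusted p = 0.0347). Both calls were fragile: that of *spe-9* was lost without any 1 of the 6 libraries (log2 fold changes of 0.65 to 1.09), and that of *spe-49* without wild-type adults (0.40), without wild-type L1 replicate 1 (0.67) or 2 (0.87) and without mutant L1 replicate 2 (0.85). *spe-10*, which encodes a palmitoyltransferase of the membranous organelles, rose by 1.0 (SE 0.253) and *spe-15* by 1.21 (SE 0.139) on the log2 scale. Without wild-type adults *spe-10* was at 0.59 and no longer called.

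The only tested member with a negative change was *spe-51*, at -0.65 (SE 0.285, edgeR adjusted p = 0.0566), with 49 and 30 counts in adults. Its call passed in the direction of lower adult levels without wild-type L1 replicate 1 (-0.79, edgeR adjusted p = 0.0425), without the wild-type adults (-0.88, 0.0429) and with a term for each group in place of separate stage and genotype terms (-0.67, 0.0244). *spe-48* did not pass either, at 0.20 (SE 0.109, edgeR adjusted p = 0.112). It passed as higher in adults without the wild-type adults (0.34, edgeR adjusted p = 0.0173), under scaling by total count (0.42, 0.00612) and with DESeq2 (0.34). RNA of whole worms cannot tell fewer expressing cells from less RNA per cell, and in adults it also holds the soma, oocytes and embryos.

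Whether the loss of EBAX-1 went with a change in sperm transcripts was examined first in L1 larvae, the stage with replicates. Only 12 of the 77 genes had enough reads to be tested there, all of them *spe* genes, and 0 were called by edgeR (1 at an unadjusted p under 0.05) or by DESeq2 (0 unadjusted, with no adjusted p for 6 of the 12), where edgeR called 16.5% of all 13756 tested genes (6.58% higher and 9.92% lower in the mutant). The median log2 fold change of the 12 was 0.22, against 0.01 for all tested genes, with 8 above 0 and 4 below. *spe-5*, which encodes a V-ATPase subunit, had 15 and 18 counts in wild type and 32 and 24 in the mutant (0.81, SE 0.374, edgeR adjusted p = 0.156). *spe-44*, which encodes a transcription factor of the spermatogenesis program, had 14 and 10 counts and then 23 and 18 (0.82, SE 0.421, edgeR adjusted p = 0.208). Neither gene passed after adjustment over all genes tested, and *spe-5* was the gene with an unadjusted edgeR p under 0.05 (0.0419). *spe-49* was at 0.56 (SE 0.416, edgeR adjusted p = 0.412) and *spe-48* at -0.14 (SE 0.108, edgeR adjusted p = 0.438).

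*spe-39* was at 0.10 (SE 0.129), *spe-15* at 0.18 (SE 0.153) and *spe-51* at 0.34 (SE 0.297), with edgeR adjusted p of 0.657, 0.490 and 0.499. *spe-41*, which encodes a TRP-type calcium channel that sperm need to fertilize, was singled out after its values were seen. It had 2 and 6 counts in wild type and 18 and 7 in the mutant, too few for the test, and was called only when mutant replicate 2 was left out, through mutant replicate 1 alone (log2 fold change 2.14, SE 0.782, edgeR adjusted p = 0.0405).

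In adults, most sperm genes stood somewhat lower in the mutant library than in the wild-type library. Of the 62 members with at least 50 counts over both adult libraries, 53 had a log2 ratio of mutant to wild type below 0, where 50.4% of all 13563 genes with that many counts did, and their median was -0.29 against 0.00 for all of these genes (-0.0032 before rounding). These values rest on 1 library per genotype, so they compare those libraries and carry no test, and the intervals given cover counting error only. The ratio of the summed counts was 0.812 for the *msp* genes (95% exact binomial interval 0.780 to 0.847), 0.744 for the *ssp* genes (0.684 to 0.810) and 0.819 for the *ssq* genes (0.763 to 0.880). It was 0.942 for the *spe* genes (0.910 to 0.975) and 1.04 for *sss-1* (0.967 to 1.12). Thus *sss-1*, with 1821 and 1189 counts, stood near 1. So did single genes of the other families, such as *msp-55* at 1.01 (0.848 to 1.21) and *msp-152* at 0.994 (0.843 to 1.17). Under scaling by total count the sums moved little, to 0.826 for *msp*, 0.757 for *ssp*, 0.833 for *ssq* and 0.958 for *spe*.

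**Figure D3:**
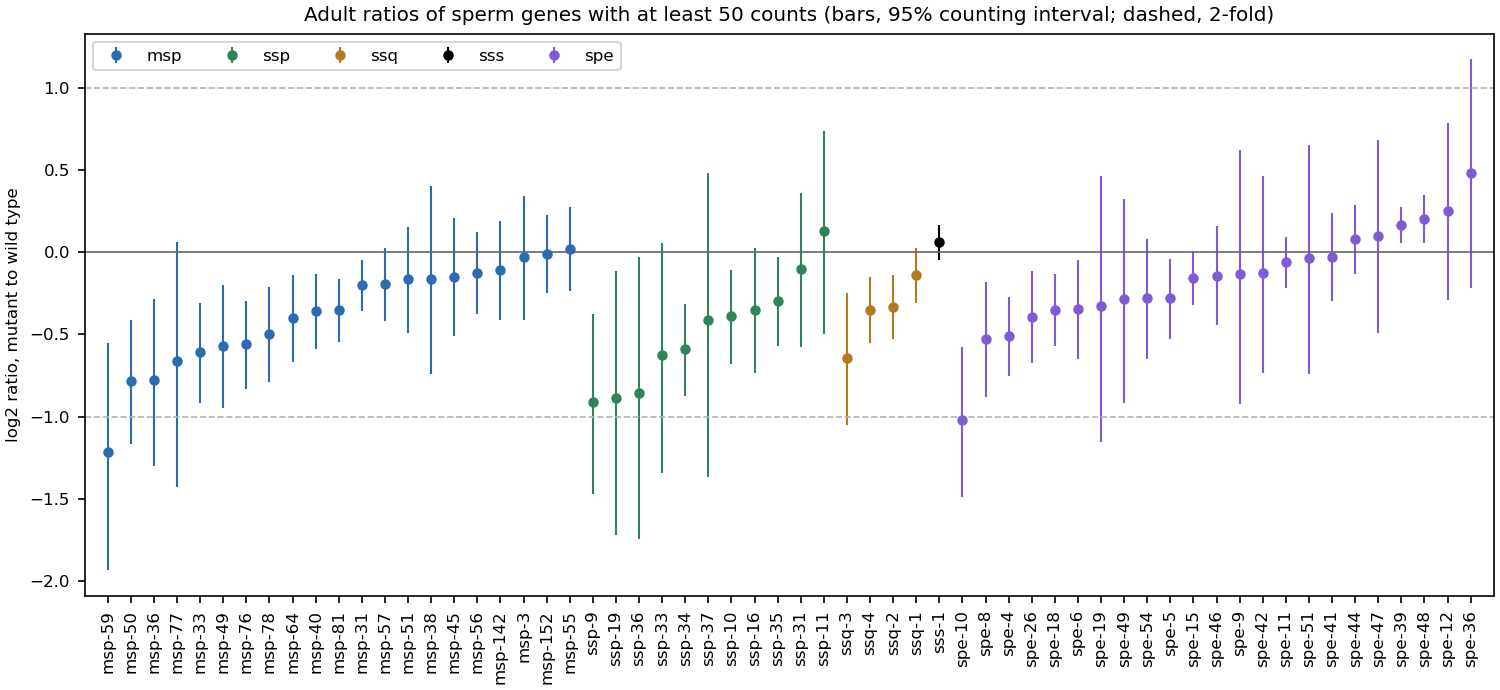
Log2 ratio of mutant to wild-type adult level for 60 of the 62 sperm genes with at least 50 counts, ordered within each family, with 95% exact binomial intervals for counting error. Most genes of the *msp*, *ssp*, *ssq* and *spe* families lie between 0 and -1.

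Among the *msp* genes, 20 of the 21 with at least 50 counts were below 0, with a median log2 ratio of -0.35 and a range from -1.19 (*msp-59*) to 0.02 (*msp-55*). The counting interval lay wholly below a ratio of 1 for 11 of the 21 and wholly above it for 0, where 24.2% and 24.8% of all genes with 50 counts had such intervals. The interval held the ratio of the family's sum for 16 of the 21. It covers counting error only, and replicate L1 libraries differed by more than that. Whether the members differ in ratio was therefore not tested. *msp-31* stood at 0.870 (0.781 to 0.968) and *msp-152* at 0.994 (0.843 to 1.17), whereas *msp-33* stood at 0.656 (0.529 to 0.809) and *msp-50*, with 228 and 83 counts, at 0.581 (0.446 to 0.750). For the *ssp* genes 10 of 11 were below 0, with a median of -0.40, and for the *ssq* genes 4 of 4, with a median of -0.34. Of the 25 *spe* genes with at least 50 counts, 19 were below 0, with a median of -0.16. *spe-39* and *spe-48*, both above 0, held 1651 and 924 of the 8664 wild-type counts in the *spe* sum.

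Only *msp-59* and *spe-10* were at least 2-fold lower in the mutant adults and 0 members were at least 2-fold higher, where 2.65% and 3.27% of all genes were (5.92% in either direction). *msp-59* had 89 and 24 counts, a log2 ratio of -1.19, and *spe-10* had 175 and 54, a log2 ratio of -1.01. Next came *ssp-9* (117 and 39 counts, -0.90) and *ssp-19* (56 and 19 counts, -0.86). The highest log2 ratios were those of *spe-36* (40 and 35 counts, 0.47), whose product is a secreted sperm protein needed for fertilization, and *spe-12* (71 and 53 counts, 0.25), which acts in spermatid activation. *spe-48* (924 and 666 counts, 0.20) and *spe-39* (1651 and 1161 counts, 0.17) followed, and among the members with at least 50 counts they were the 2 whose counting interval lay wholly above a ratio of 1.

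The *spe* genes divided by role as follows. Of the 6 genes of the membranous organelles and fibrous bodies, the sperm organelles that carry MSP and membrane proteins, 5 were below 0 in adults. They included *spe-10*, the presenilin gene *spe-4* (475 and 209 counts, -0.51), *spe-18* (539 and 265 counts, -0.35) and *spe-5* (411 and 212 counts, -0.28), while *spe-39* was above 0. Of the 4 genes of transcription, meiosis and division, the transcription factor gene *spe-44* was at 0.08 (476 and 315 counts), and the casein kinase gene *spe-6* (286 and 141 counts, -0.34), *spe-15* (863 and 485 counts, -0.16) and the kelch-repeat gene *spe-26* (331 and 158 counts, -0.39) were below 0. The 8 genes of spermatid activation were scarce except *spe-46* (257 and 146 counts, -0.14) and *spe-8* (232 and 101 counts, -0.52), and 5 of them had 50 counts in all, 3 of these below 0.

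The 7 genes of sperm-egg fusion were scarcer still, with 376 counts in sum in wild type and 209 in the mutant. Their summed ratio was 0.887 (0.745 to 1.05), so that a difference was not detectable at this depth. *spe-42* had 68 and 39 counts, and *spe-38* had 33 and 11. *spe-11*, with 906 and 544 counts, stood at 0.958 (0.860 to 1.07).

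Adult ratios were also summed by position. The summed counts of the 9 groups of neighbours gave ratios from 0.687 (0.569 to 0.825), for *ssp-36*, *msp-79* and *msp-78* on chromosome IV, to 0.930 (0.884 to 0.979), for the group that holds *sss-1*. Members on chromosome II gave 0.816 (0.774 to 0.861) and those on chromosome IV 0.859 (0.830 to 0.889). Chromosomes I, III and V, which hold no *msp* gene, gave 0.915 (0.873 to 0.959), 0.886 (0.772 to 1.02) and 1.0 (0.937 to 1.07). *spe-39* held 1651 of the 2411 wild-type counts on chromosome V, where 6 of 7 members were below 0, with a median log2 ratio of -0.30. The adult libraries were made to examine genes near a set of lowered piRNAs on chromosome IV. The study reports no change in the mutant for the protein-coding genes it examined in that interval. In it lie 7 sperm genes: *ssp-9*, *ssq-2*, *ssp-11*, *ssq-4*, *msp-55*, *msp-57* and *msp-53*. Their summed ratio was 0.832 (0.775 to 0.893), against 0.839 (0.812 to 0.867) for the other 41 *msp*, *ssp*, *ssq* and *sss* genes.

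Other genes of sperm and of neighbouring tissues give the setting of these ratios. A list of further sperm genes held 17 with a row in the table. Among them were the phosphatase genes *gsp-3* and *gsp-4*, and *fer-1*, needed for fusion of the membranous organelles. All 17 were below 0 in adults, with a median of -0.38, where 50.4% of all genes with 50 counts were. The stage fit called all 17 higher in adults, where it called 44% of all tested genes higher. Genes with 0 counts in each L1 library, such as *nspd-1*, entered that fit through the adult libraries alone and could only be called higher. The most abundant were *gipc-2* (3503 and 1934 counts, -0.18), *gipc-1* (2293 and 1244, -0.21), *nspd-1* (1137 and 548, -0.38) and *nspd-2* (1120 and 522, -0.43). Of 9 regulators of sperm fate 4 were below 0, with a median of 0.11, including *tra-2* (2045 and 1548 counts, 0.27), *fem-1* (2145 and 1246, -0.11) and *fem-3* (1890 and 1322, 0.16), which set the choice between sperm and oocyte, and *cpb-1* (1315 and 819, -0.01), needed for spermatogenesis. All 12 oocyte genes lay between -0.26 and 0.15, with a median of -0.01. The most abundant were *cbd-1*, at 0.940 of wild type (0.924 to 0.957), and *perm-4*, at 0.838 (0.816 to 0.860). Then came *chs-1*, at 1.11 (1.08 to 1.14), and *perm-2*, at 0.966 (0.938 to 0.996). The counting interval lay wholly below 1 for 4 of the 12 and wholly above it for 2. Over all genes with 50 counts these shares were 24.2% and 24.8%. The median of the oocyte genes was thus close to the -0.0032 of all genes with 50 counts. Their summed ratio was 0.973 (0.964 to 0.982), below 1 but nearer to it than the 0.942 of the *spe* genes. Single oocyte genes stood lower, such as *perm-4*, or higher, such as *chs-1*. With 1 library per genotype, a difference between oocyte and sperm genes was not tested.

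Markers of other cells moved in their own ways beside these sperm genes. The 6 vitellogenin genes were all above 0, from 0.16 for *vit-2* to 1.81 for *vit-4*, with 872159 counts in sum in wild type and 634659 in the mutant. Of 11 genes listed for transcription in the early embryo, 4 had 50 counts, and all 4 were above 0, with a median of 0.38. The counting interval lay wholly above a ratio of 1 for only 2 of them, *vet-2* at 1.66 and *sdz-28* at 1.54. It held 1 for *pal-1*, at 1.05 (0.985 to 1.13), and for *pes-10*, at 1.11 (0.684 to 1.78). *pal-1* held 2176 of the list's 2702 wild-type counts. The 7 genes of spermatheca and sheath had a median of -0.15, and the 8 genes by which oocytes and sheath cells respond to MSP had a median of -0.03. Male soma and seminal fluid genes were scarce, with 436 and 452 counts in sum over 6 genes, of which *swm-1* held 379 and 381, *pkd-2* had 2 and 2 and *lov-1* had 0 and 1. Scaled for library size, their summed ratio was 1.65 (1.45 to 1.89), which rests mainly on *swm-1*, at 1.60 (1.39 to 1.85). The only other gene of the list with 50 counts was *cil-7*, at 1.60 (0.920 to 2.77). *swm-1* also had 239 to 335 counts in each L1 library, so its reads do not mark adult male tissue alone. The yolk genes, *vet-2*, *sdz-28* and *swm-1* thus differed between the adult libraries in the direction opposite to most sperm genes. The part of other tissues in these ratios was not tested.

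**Figure D4:**
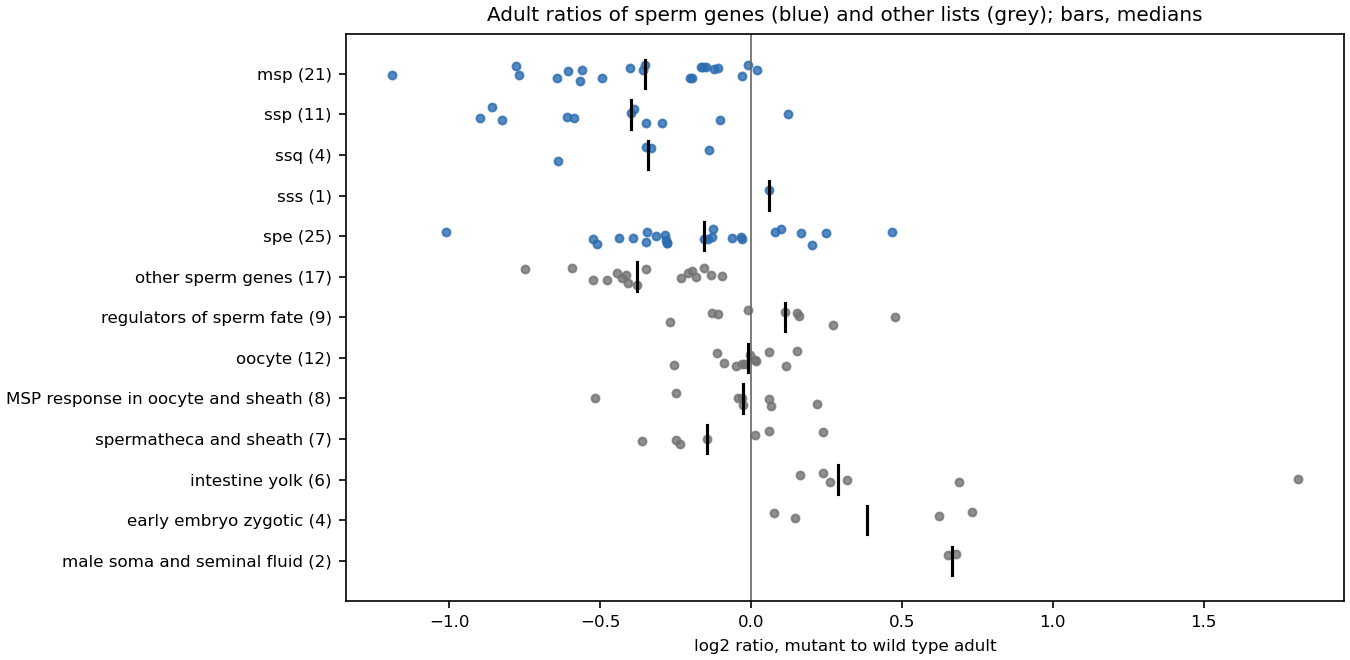
Log2 ratio of mutant to wild-type adult level for genes with at least 50 counts, by family of sperm genes (blue) and by other list (grey), with a black bar at each median and the number of genes in parentheses. Other sperm genes have a median of -0.38, oocyte genes of -0.01 and yolk genes of 0.29.

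A difference between the stages in the effect of genotype was tested with an interaction term over all 6 libraries, in which the adult libraries are taken to vary like the L1 libraries. Of 68 sperm genes tested 0 were called by edgeR (3 at an unadjusted p under 0.05) and 0 by DESeq2 (0 unadjusted, with no adjusted p for 52 of the 68), where edgeR called 9.15% of all 16376 tested genes (4.49% with a positive term and 4.65% with a negative one). The term can be estimated only for genes with L1 reads, which 33 of the 68 had, and 23 of these were below 0. The 3 with an unadjusted p under 0.05 were *spe-5* (-1.15, SE 0.415, edgeR adjusted p = 0.0824), *spe-41* (-1.76, SE 0.674, edgeR adjusted p = 0.107) and *spe-4* (-0.91, SE 0.398, edgeR adjusted p = 0.173). *spe-41* was called without wild-type L1 replicate 2, and both *spe-5* and *spe-41* without mutant L1 replicate 2. For the *msp*, *ssp* and *ssq* genes, with almost no reads in L1 larvae, the adult ratios could not be set against larval ones.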

How the data were processed

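The deposited values are raw counts for each gene, not normalized. According to the study's methods, the authors mapped single-end reads by STAR (2.7.1a), kept reads with a unique alignment and summed those on the reverse strand of coding sequence by featureCounts. The submitters' processing notes give the build WBcel235. Of 20447 gene IDs, 19620 had a symbol and 20159 a position in the Ensembl annotation of WBcel235 used here. Both WBGene00006038 and WBGene00006040 carry the symbol *ssp-9* there, and the latter is called *ssp-11*, as RefSeq names the gene at its position. Members and lists were chosen with earlier results of these data known. Sequences of these genes were not used here. Values of 2 members are in the counts and sums but are not reported by gene here.

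The test was edgeR's quasi-likelihood F-test (edgeR 4.0.16, R 4.3.3) after TMM scaling and filterByExpr, whose minimum count was 10. It is two-sided, and p-values were adjusted by Benjamini-Hochberg over all genes tested, with a threshold of 0.05. L1 genotypes were compared over the 4 L1 libraries, and stage and interaction over all 6. Adult log2 ratios were taken from CPM after TMM scaling, with 1 count added as a prior, for genes whose adult counts summed to 50 or more. The ratios with intervals used the counts without a prior, with exact binomial limits. Levels in CPM were scaled within each stage, except the floor of 0.0654 CPM and the lower bounds of fold. Those used the scaling over all 6 libraries. The methods describe the L1 libraries as independent biological replicates, and replicates differed by more than counting noise (chi-square per degree of freedom 3.95 in wild type and 6.38 in the mutant). DESeq2 1.42.0, other scalings and filters, a replicate block and leaving out each library were the alternatives. Named members were the 4 highest of each family in adults, the 4 highest and 4 lowest adult ratios, the 4 highest levels and 4 smallest p in L1 larvae, the 4 largest and 4 smallest rises between stages, and the *spe* genes with a listed role. In other lists up to 4 genes with the highest adult level were named. *spe-41*, *msp-50*, *msp-55*, the *msp* genes described as neighbours, *vit-4*, *pkd-2* and *lov-1* were picked after their values were seen. In simulated data of 13756 genes the L1 test called 50% of the 1.5-fold changes and 82% of the 2-fold ones. In 15800 genes the stage test called 28% of the 1.5-fold changes and 78% of the 2-fold ones. In 16376 genes the interaction test called 12% and 64%. The changed genes were drawn from all tested genes, so the rates for genes with as few reads as most members were not measured.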

Additional observations from a re-analysis of the deposited data

How the results depend on the processing

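The count of called members in L1 larvae was 0 in the data as analysed, 0 to 1 when a library was left out (the 1 being *spe-41*, without mutant replicate 2), and 0 with DESeq2, total count scaling, either other filter and the replicate block. The numbers of the replicates did not pair them: the deviations of same-numbered L1 libraries had a correlation of -0.0112 across genes, and the block left the median log2 fold change of the 12 tested members at 0.22. The stage count of 62 ran from 59 to 64 when a library was left out and was 55 with DESeq2. The interaction count of 0 ran from 0 to 2 when an L1 library was left out, with 1 call without wild-type replicate 2 and 2 without mutant replicate 2. The count of 2 members changed at least 2-fold in adults dropped to 1 under total count scaling, to 1 with a minimum of 200 counts and to 1 with a prior count of 5. It was 3 with a minimum of 10 counts and 2 with DESeq2 size factors. The log2 fold change of *spe-48* in L1 larvae turned from -0.14 to 0.022 under total count scaling, with no call in either case. The median log2 ratio of the *msp* genes in adults was -0.35, -0.33 under total count scaling and -0.30 for the sum of the family. All adult values lack replicates, and low counts limit the *spe* genes of activation and fusion.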
